A study of Danio rerio with 16 samples.

Results

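Potassium channel genes were taken as all rows whose RefSeq accession maps to a zebrafish symbol starting with kcn. They make up 63 of 14792 rows in the tables that compare dissociated with intact testes (CDxCI) and TCDD-exposed with control testes by bulk-seq (TBxCB), and 1 of 6847 rows in the table of the same exposure by pseudo bulk-seq (TPxCP). Each row stands for 1 gene, and RefSeq holds 130 kcn genes in all. By the prefix of the symbol, 25 rows encode voltage-gated channels, 3 encode calcium- or sodium-activated channels (kcnma, kcnn), 14 encode inward rectifiers (kcnj), 14 encode leak channels with tandem pore domains (kcnk) and 7 encode auxiliary proteins such as the calcium-binding kcnip partners.

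Potassium channels let potassium ions leave or enter a cell along their gradient and so set the voltage across its membrane. Voltage-gated members open when the membrane depolarises, calcium-activated members when calcium in the cell rises, and inward rectifiers and tandem-pore channels hold the resting voltage. In testis, the membrane voltage set by such channels is known to bear on steroid secretion, on contraction of smooth muscle and on the swimming of sperm.

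The study asked how tissue dissociation and the method of sequencing bear on what is seen of TCDD, the dioxin that activates the aryl hydrocarbon receptor. All fish were of the AB strain. Intact control testes (CI, n = 3) and dissociated control testes (CD, n = 3) came from fish of 1 year of age, where 1 testis was minced, shaken in collagenase and freed of dead cells while the contralateral one was kept whole. The intact testes were held in RNALater before freezing, a step the paper does not describe for dissociated cells. Differences between CI and CD can thus come from preservation as well as dissociation, which cannot be told apart. Dissociated testes of 1.5-year-old fish gave both a bulk library and a 10x library, the latter summed over cells, from 3 control suspensions (CB and CP) and 2 suspensions of fish exposed to TCDD (TB and TP). Exposed fish were held for 1 h in 50 pg/ml TCDD at 3 and at 7 weeks of age, with 0.1% DMSO as the vehicle for controls, although the sample labels print the TCDD dose for control fish too. The columns of CB and TB are numbered here as their names are, and could not be tied to single samples. Fish behind CB and CD differ in age, so those groups are set side by side without a test.

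Libraries held 7968350 to 29144951 counts for CDxCI, 4828801 to 36172885 for TBxCB and 3490409 to 9987998 for TPxCP. In CPM, that is, scaled to a common library total, 3 counts equal 0.103 to 0.377 in the libraries of CDxCI. The shallowest bulk library was TB 2. In CDxCI, CI 1 and CI 2 were shallow, at 7968350 and 8308248 counts, beside at least 22948119 in each CD library. Markers of meiotic cells were present in every bulk library. In CDxCI, 6 spermatocyte genes summed to 4372 to 4406 CPM in CI and 4357 to 6446 CPM in CD. The 6 spermatogonia genes summed to 2573 to 2890 CPM in CI and 2862 to 3735 CPM in CD. For 6 genes of spermatids and sperm the sums were 192 to 418 and 336 to 437 CPM. Median log2 fold changes of these 3 lists were 0.46, 0.51 and 0.38, toward higher levels in CD, and 0 genes were called. Markers of some somatic cell types were much lower in CD than in CI. Of 8 Sertoli cell markers, 8 were in the table, 3 were lower in CD at an adjusted p under 0.05, and their sum was 1399 to 2159 CPM in CI and 216 to 248 CPM in CD. The 6 Leydig cell markers in the table summed to 3523 to 3977 CPM in CI and 30.6 to 212 CPM in CD, with 3 lower, and the 5 of smooth muscle and pericytes to 738 to 1580 and 52.5 to 59.8 CPM, with 3 lower. Levels overlapped for 4 endothelial markers, at 27.8 to 48.9 CPM in CI and 27.5 to 32.4 CPM in CD. The sums of 6 leukocyte markers did not overlap, at 49.01 to 58.2 CPM in CI and 37.0 to 39.5 CPM in CD. Of these 1 was lower in CD, and their median log2 fold change was −1.48. The 5 genes of neurons and glia overlapped, at 980 to 1432 CPM in CI and 895 to 1007 CPM in CD, and 0 were called. The 4 erythrocyte genes overlapped as well, at 42.7 to 105 and 50.2 to 64.0 CPM, and of these hbba1 had no count. Fewer cells of a type and less RNA per cell cannot be told apart in bulk libraries.

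Few of the potassium channel genes with a row were well expressed. Levels are CPM on the TMM scale. Since each transcript gives 1 tag from its 3′ end, they were compared between genes without division by length. Whether the tags of each gene fell within its annotated 3′ end was not tested, so levels may be too low for some genes. Over the 6 libraries of CDxCI, 9 of 63 rows had a mean of at least 10 CPM, a level reached by 51.2% of all rows. A further 23 rows were at 1 to 10 CPM and 31 were under 1 CPM. No count at all was found for kcnd2, kcnj11, kcnj1a.3, kcnk18 and kcns3b, which allows levels of up to the 3-count floor of each library.

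**Figure D1:**
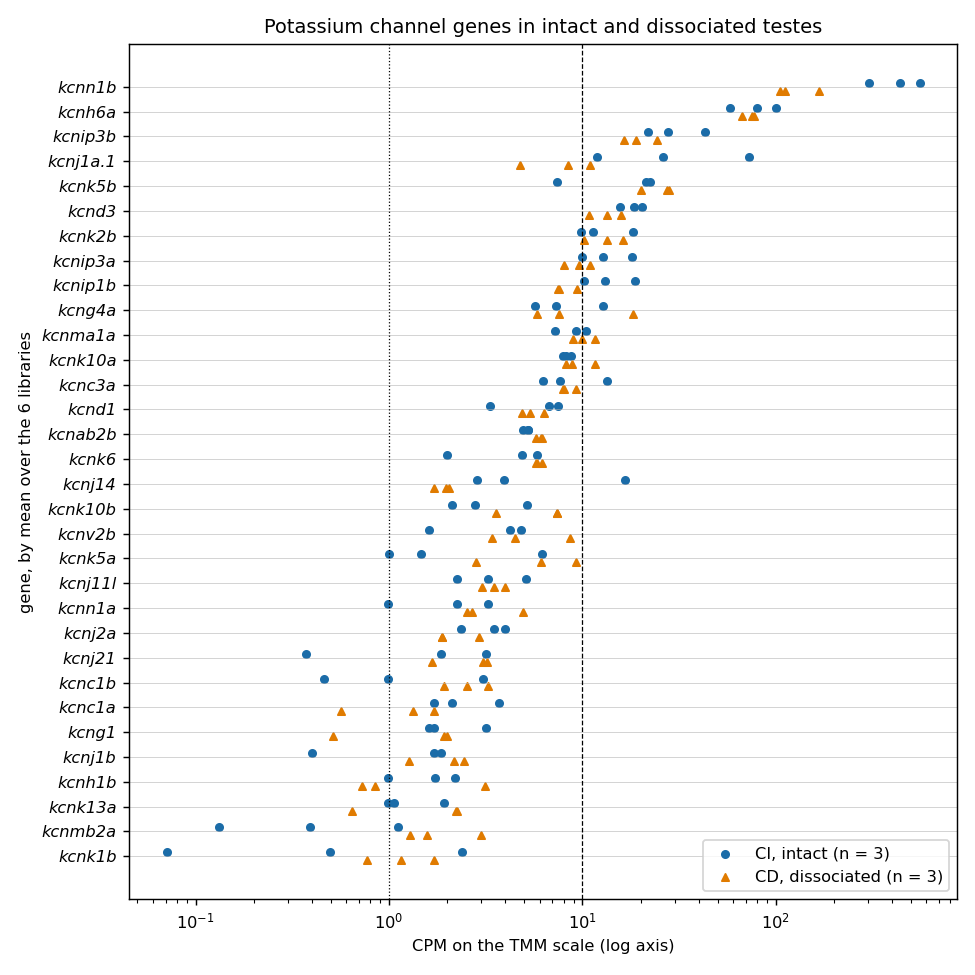
Levels of the 32 kcn genes with a mean of at least 1 CPM, in CPM on a log axis, with 1 point for each CI (n = 3, circles) and CD library (n = 3, triangles). The dashed line marks 10 CPM and the dotted line 1 CPM, and kcnn1b is the 1 gene with every CI library at 305 CPM or more.

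The calcium-activated channel kcnn1b (NM_001328106), a small-conductance SK channel, was the most abundant of the 63 kcn rows, at rank 659 of 14792 rows by mean level. It had 305, 437 and 555 CPM in the 3 CI libraries and 111, 168 and 105 CPM in the 3 CD libraries. Every intact library lay above every dissociated one. The mean was 432 ± 125 CPM in CI and 128 ± 34.6 CPM in CD (SD, n = 3 each). On the log2 scale kcnn1b was lower in CD by 1.76 with a standard error of 0.27, a level 3.38 times lower. The quasi-likelihood test of edgeR gave this an adjusted p of 0.00621. Log2 fold changes are given as the estimate ± 1 standard error from here on. It was the only one of 42 kcn rows tested that passed in CDxCI. That is 2.38% of them, where 1.96% of all rows tested passed as lower and 0.258% as higher in CD. The call was lost without CD replicate 1 (adjusted p = 0.0529, log2 fold change −1.66) and without CD replicate 3 (adjusted p = 0.0630, log2 fold change −1.64), and held without CD replicate 2 (adjusted p = 0.0135) and without any 1 of the CI libraries. The sums of Sertoli, Leydig and smooth muscle markers given above moved the same way, and their part in the lower kcnn1b level was not tested.

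Because of its level, kcnn1b carried much of the potassium channel signal. All 63 rows together summed to 608, 774 and 884 CPM in CI and to 410, 435 and 384 CPM in CD. Of these sums kcnn1b made up 50.1%, 56.5% and 62.8% in CI, against 27.2%, 38.6% and 27.3% in CD. Without it the sums were 303, 337 and 328 CPM in CI and 299, 267 and 279 CPM in CD, which do not overlap but lie much closer together. That separation is narrow, with 303 CPM in CI 1 beside 299 CPM in CD 1. With 1 further row left out, be it kcnh6a, kcnd3 or kcnj1a.1, the sums of CI and CD overlap, so it cannot be laid to a single gene.

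**Figure D2:**
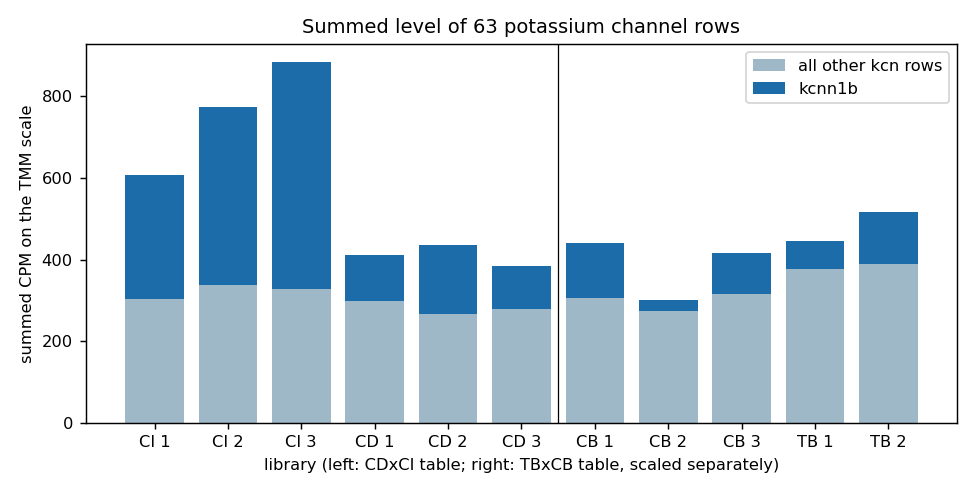
Summed CPM of the 63 kcn rows in each bulk library, with the share of kcnn1b in dark blue and all other rows in light blue. The 3 CI libraries reach 608 to 884 CPM and the 3 CD libraries 384 to 435 CPM. CB and TB are from another table that was scaled separately.

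The other members of the calcium-activated class were less abundant. The large-conductance BK channel kcnma1a (NM_001145600) was at 7.20, 9.27 and 10.4 CPM in CI and at 11.6, 8.90 and 9.91 CPM in CD, with groups that overlapped (log2 fold change 0.17 ± 0.30, edgeR adjusted p = 0.807). Its auxiliary subunit gene kcnmb2a (NM_001013525) had only 1.12, 0.13 and 0.39 CPM in CI and 2.98, 1.58 and 1.28 CPM in CD. The CD libraries all lay higher, but the difference did not pass (log2 fold change 1.86 ± 0.85, edgeR adjusted p = 0.290). The second SK gene, kcnn1a, was at 0.99 to 4.95 CPM over the 6 libraries, far under kcnn1b.

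Among the 25 voltage-gated rows, kcnh6a (NM_212837), the ERG-type channel known in zebrafish for repolarising the heart, was the most abundant. Its levels were 100.4, 79.9 and 58.2 CPM in CI and 77.2, 67.1 and 74.9 CPM in CD. The CD values lay within the range of CI, and the log2 fold change was −0.12 ± 0.23 (edgeR adjusted p = 0.826). The A-type channel kcnd3 (NM_199802) was at 20.4, 18.4 and 15.6 CPM in CI and 13.4, 15.8 and 10.8 CPM in CD, which overlapped as well (log2 fold change −0.44 ± 0.27, edgeR adjusted p = 0.429). The silent subunit kcng4a (NM_001110029), which modifies other voltage-gated channels, stood just under the level of 10 CPM. It ranged from 5.71 to 12.7 CPM in CI and from 5.85 to 18.2 CPM in CD.

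The largest fold changes among voltage-gated genes came from weak signals. The M-type channel gene kcnq2a had 0, 0.66 and 0.60 CPM in CI and 2.88, 1.02 and 0.73 CPM in CD, without overlap (log2 fold change 1.79 ± 1.03, edgeR adjusted p = 0.390). Its 0 was of the shallow CI replicate 1, where 3 counts equal 0.377 CPM. The silent subunit kcnf1a had a log2 fold change of −1.47 ± 1.16 (edgeR adjusted p = 0.541) and the fast delayed rectifier kcnc1a one of −1.05 ± 0.65 (edgeR adjusted p = 0.431). None of the 15 voltage-gated rows tested passed, and 5 of them had a log2 fold change above 0. The remaining 10 of 25 had too few counts to be tested.

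Inward rectifiers held the largest fold change of any member in CDxCI. The ROMK-type gene kcnj1a.1 (NM_201035), whose mammalian counterpart secretes potassium in the kidney, had 11.9, 25.96 and 72.4 CPM in CI and 4.77, 8.43 and 10.9 CPM in CD. All CI libraries were above all CD libraries, but CI replicate 3 was far above its own group. The log2 fold change was −2.21 ± 0.61 (edgeR adjusted p = 0.117), and −1.23 without CI replicate 3. It passed with DESeq2 at an adjusted p of 0.000901 and without CI replicate 1 in edgeR at 0.0201. With a replicate block in edgeR the adjusted p was 0.0169, but the replicate numbers could not be taken as pairs of testes. In the RefSeq annotation kcnj1a.1 is 1 of 6 kcnj1a genes that follow each other with no other gene between. Their sequences were not compared, and whether tags were divided among them was not tested. The other 5 rows were at most at 1.06 CPM in any library of CDxCI.

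The inward rectifier kcnj14 (NM_001326474), of the Kir2 family, showed how 1 library can carry a difference. Its levels were 2.86, 16.7 and 3.94 CPM in CI and 1.97, 1.70 and 2.05 CPM in CD. The groups did not overlap, and the log2 fold change was −2.02 ± 0.63 (edgeR adjusted p = 0.140), but −0.84 without CI replicate 2. With DESeq2 the adjusted p was 0.0237. The other inward rectifiers that could be tested, kcnj2a, kcnj11l, kcnj13, kcnj1b and kcnj21, had log2 fold changes between −0.54 and 0.53, and none passed. The remaining 7 of 14 inward rectifiers had too few counts.

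For tandem-pore channels, all 11 rows tested had a log2 fold change above 0, toward higher levels in CD, with a median of 0.56 beside 0.01 over all rows tested, of which 50.5% were above 0. No single one passed, and 9 to 11 of the 11 stayed above 0 when 1 library was left out. The full agreement depended on the filter, since 11 of 13 rows were above 0 without it and 12 of 13 with DESeq2. The germ cell marker lists given above also had medians above 0, and their part in these changes was not tested. The most abundant was kcnk5b (NM_200633), an alkaline-activated channel of the TASK-2 type whose gain of function is known to lengthen zebrafish fins. It had 22.3, 7.42 and 21.4 CPM in CI and 27.4, 28.1 and 20.2 CPM in CD, with CI replicate 2 the lowest by far (log2 fold change 0.56 ± 0.38, edgeR adjusted p = 0.475). The TREK-type channel kcnk2b (NM_001037398), which responds to stretch, was at 18.3, 9.80 and 11.4 CPM in CI and 16.2, 10.2 and 13.5 CPM in CD. Its group means of 13.1 and 13.3 CPM were nearly equal.

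The other tandem-pore genes had lower mean levels. The second TREK-type gene kcnk10a (NM_001318375) was at 7.91 to 8.69 CPM in CI and 8.22 to 11.7 CPM in CD (log2 fold change 0.21 ± 0.30, edgeR adjusted p = 0.751). The TASK-2 paralog kcnk5a was at 6.21, 1.46 and 0.99 CPM in CI and 6.11, 2.81 and 9.22 CPM in CD (log2 fold change 1.11 ± 0.70, and 0.65 to 2.34 with 1 library left out). The TASK-type gene kcnk15, at 0.74, 0 and 0.53 CPM in CI and 0.95, 1.53 and 1.20 CPM in CD, had separate groups but few counts (log2 fold change 1.46 ± 0.98). Its 0 was of the shallow CI replicate 2, where 3 counts equal 0.361 CPM. The row of kcnk13b had only 5, 0 and 0 counts in CI and 20, 0 and 20 counts in CD. For kcnk13b the log2 fold change of 1.59 came with a standard error of 1.82. It ranged from 0.71 without CI replicate 3 to 6.55 without CI replicate 1, where no count was left in CI.

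The 3 auxiliary genes that were well expressed are all kcnip genes for calcium-binding proteins that attach to A-type channels such as kcnd3. The levels of kcnip3b (NM_200782) were 21.9, 43.2 and 27.9 CPM in CI and 18.9, 24.4 and 16.4 CPM in CD. Its paralog kcnip3a (NM_200819) was at 9.93, 18.02 and 12.7 CPM in CI and 8.004, 10.98 and 9.65 CPM in CD, and kcnip1b (NM_001008632) at 13.0, 18.8 and 10.2 CPM in CI and 7.44, 9.32 and 7.60 CPM in CD. All 3 had lower means in CD, but separate groups were seen for kcnip1b alone. Their log2 fold changes were −0.64, −0.50 and −0.78, with adjusted p of 0.301, 0.431 and 0.245 from edgeR. All 3 were highest in CI replicate 2, and kcnd3 was not.

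**Figure D3:**
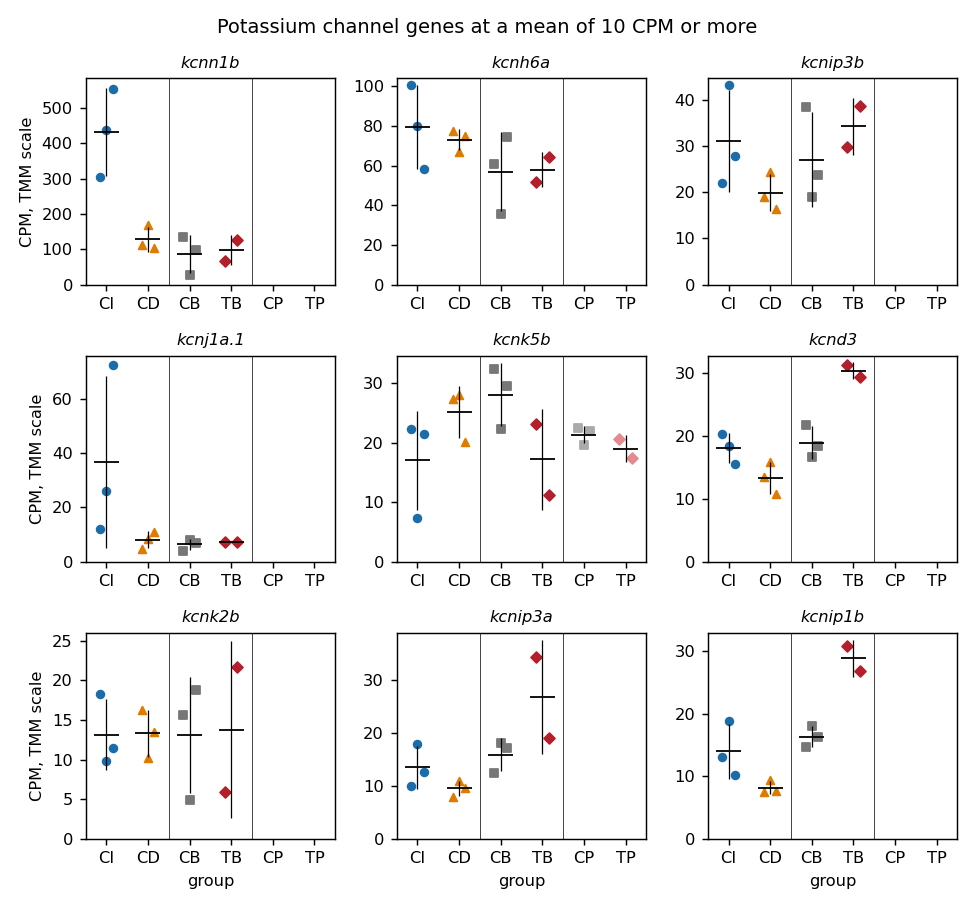
Levels of the 9 kcn genes with a mean of at least 10 CPM, with 1 point per library, the group mean as a horizontal bar and ± 1 SD as a vertical line (n = 3 for CI, CD, CB and CP, n = 2 for TB and TP). Vertical lines separate the 3 tables, which were scaled separately. CP and TP have points for kcnk5b alone, at 17.4 to 22.5 CPM. The CI points of kcnn1b, at 305 to 555 CPM, lie above those of all other groups.

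Across all 42 rows tested in CDxCI, the share of lower rows was close to that of the whole table, and the share of higher rows was below it. At an unadjusted p under 0.05, 4 rows (9.52%) were lower and 0 were higher in CD, beside 9.99% and 7.33% of all rows tested. Libraries did not overlap for 5 rows that were lower in CD and 4 that were higher, which is 11.9% and 9.52%, beside 13.1% and 13.3% of all rows. The median log2 fold change was 0.10 over the members and 0.01 over all rows.

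In TBxCB no potassium channel gene passed the test for TCDD. Of 40 rows tested, 0 were called by edgeR, which called 0% of all 12939 rows tested in either direction. DESeq2 called 0 of the 59 kcn rows with a count, and 11 of all 10865 rows to which it gave an adjusted p. At an unadjusted p under 0.05, 2 rows were higher in TB and 1 was lower, or 5% and 2.5%, beside 4.44% and 4.44% of all rows. Both arms are small, TB holds only 2 libraries, and 1 of them is the shallowest of all bulk libraries. For 20 kcn rows with counts, another row of the table has the same totals in both groups, so that the group totals are theirs but the split over libraries may belong to the other row. Values of such rows are given below as tied.

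Although none passed, most of the potassium channel rows tested had higher levels in TB than in CB. A log2 fold change above 0 was found for 29 of 40 rows (72.5%), beside 47.2% of all rows tested, and the median was 0.38 beside −0.05. Without a filter the excess was smaller, at 34 of 59 rows (57.6%) beside 46.0% of all rows, with a median of 0.15 beside −0.07. Among rows tested, TB and CB libraries did not overlap for 14 that were higher in TB (35%) and 2 that were lower (5%), beside 13.8% and 16.1% of all rows tested. Of the 14, kcnc1b is tied, and both lower rows, kcnq1.1 and kcnq2a, are tied as well. Rows with too few counts to be tested are not in these shares. Of those, kcnj13 lay higher in TB without overlap, and kcnf1a and kcns3a, both tied, lay lower. With tied rows in the other order, 14 of the rows tested were higher and 1 was lower. With library totals in place of TMM, 11 rows were higher without overlap, and 14.6% of all rows. These shares are descriptions of 5 libraries, and no test was made over the members. Among cell type markers, 5 genes of neurons and glia, of which elavl4, snap25a and syt1a made up most of the level, also summed higher in TB, at 2110 to 2169 CPM against 1280 to 1609 CPM in CB. So did 4 erythrocyte markers, of which hbba1 had no count, at 40.8 to 60.7 CPM against 27.4 to 40.5 CPM. Which cells gave the transcripts of the neuron and glia list was not tested. The 5 markers of smooth muscle and pericytes overlapped, at 130 to 258 CPM in TB and 74.0 to 231 CPM in CB, with a median log2 fold change of 0.68, and the 4 endothelial markers at 43.4 to 77.6 and 30.6 to 61.7 CPM. The 6 markers of spermatids and sperm summed to 194 CPM in both TB libraries and to 206 to 482 CPM in CB, and the 6 of spermatogonia to 1895 to 2037 CPM in TB and 2380 to 3277 CPM in CB. Sertoli cell markers overlapped, at 187 to 236 CPM in TB and 186 to 297 CPM in CB. Leydig cell markers did too, at 113 to 134 and 82.9 to 273 CPM. The same held for leukocyte markers, at 19.6 to 30.0 and 28.1 to 39.5 CPM, although the median log2 fold change of the 4 tested was 0.36, toward higher levels in TB. Spermatocyte markers were at 4375 to 7418 CPM in TB and 4514 to 5748 CPM in CB. The part of any of these markers in the higher channel levels was not tested.

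**Figure D4:**
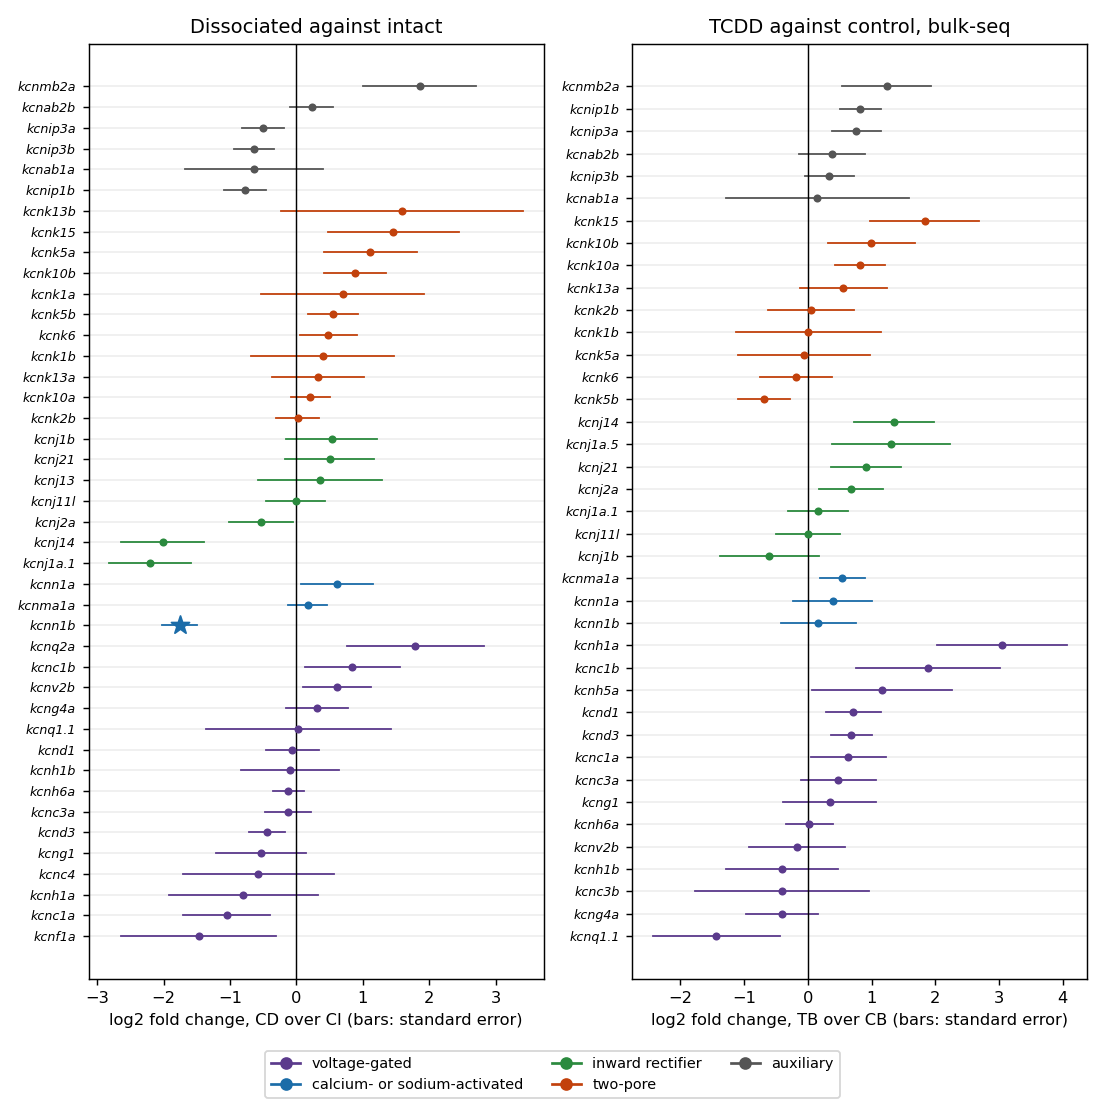
Log2 fold changes of the kcn rows tested, by class, with bars of 1 standard error, for CD over CI (left, 42 rows, n = 3 each) and TB over CB (right, 39 of 40 rows, n = 2 and 3). The star marks kcnn1b at −1.76, the 1 row with an adjusted p under 0.05, and kcnq2a is left out on the right because TB had no count. In the left panel, all 11 kcnk rows that passed the filter lie to the right of 0.

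Several of the moderately expressed genes lay apart in the TBxCB libraries. The A-type channel kcnd3 was at 21.7, 16.7 and 18.4 CPM in CB and 31.3 and 29.4 CPM in TB (log2 fold change 0.68 ± 0.32, edgeR adjusted p = 0.557). Of its kcnip partners, kcnip1b and kcnip3a showed the same order. For kcnip1b the levels were 14.7, 18.03 and 16.2 CPM in CB and 30.9 and 26.8 CPM in TB (log2 fold change 0.82 ± 0.32, edgeR adjusted p = 0.553). The paralog kcnip3a was at 12.4, 18.1 and 17.3 CPM in CB and 34.4 and 19.2 CPM in TB, so that TB 2 was barely above the controls. In contrast, kcnip3b overlapped, at 38.5, 18.9 and 23.6 CPM in CB and 29.8 and 38.6 CPM in TB.

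The BK channel kcnma1a was at 15.9, 23.3 and 14.9 CPM in CB and 28.2 and 24.1 CPM in TB (log2 fold change 0.54 ± 0.35, edgeR adjusted p = 0.607), and its auxiliary gene kcnmb2a at 1.48, 0.87 and 1.78 CPM in CB and 4.12 and 2.23 CPM in TB. The TREK-type kcnk10a was at 9.59, 14.7 and 13.0 CPM in CB and 27.8 and 15.8 CPM in TB (log2 fold change 0.82 ± 0.39, edgeR adjusted p = 0.560). In each of these the TB libraries lay above all CB libraries, by a margin under 1 CPM for kcnma1a and kcnmb2a. The 6 largest fold changes in TBxCB came from weak signals.

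The EAG-type channel kcnh1a (NM_001044931) had the highest positive fold change in TBxCB, with 0.11, 0.42 and 0.67 CPM in CB and 1.65 and 5.35 CPM in TB. These are 2, 16 and 14 counts against 24 and 24 counts. The log2 fold change was 3.04 ± 1.02 (edgeR adjusted p = 0.553), and 2.07 without TB replicate 2. In CDxCI the same gene was at 0 to 1.17 CPM. For kcnk15 the levels were 0.34, 0.98 and 0.91 CPM in CB and 2.13 and 3.35 CPM in TB (log2 fold change 1.83 ± 0.86), and for kcnj14 they were 2.05, 1.11 and 1.88 CPM in CB and 3.30 and 5.35 CPM in TB (log2 fold change 1.35 ± 0.62). Both lay apart in TBxCB, each at an adjusted p of 0.557 from edgeR.

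The remaining large changes are of tied rows. The delayed rectifier kcnc1b had 152 counts in CB and 101 in TB in all (log2 fold change 1.88 ± 1.13, edgeR adjusted p = 0.588). The cardiac-type channel kcnq1.1 had 133 counts in CB and 13 in TB (log2 fold change −1.44 ± 0.99, edgeR adjusted p = 0.623). The M-type channel kcnq2a had 45 counts in CB and 0 in TB. Against a floor of 3 counts over both TB libraries it was at least 3.58-fold lower in TB, at an adjusted p of 0.553 from edgeR.

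TB and CB overlapped for the most abundant channel genes, kcnn1b and kcnh6a, and for kcnk2b and kcnj1a.1. In CB the levels of kcnn1b were 134, 27.0 and 98.6 CPM, and in TB they were 67.4 and 127 CPM, so that the highest and the lowest library were both controls (log2 fold change 0.16 ± 0.58, edgeR adjusted p = 0.936). Library CB 2 was also the lowest for kcnh6a, at 35.4 CPM beside 61.0 and 74.3 CPM in the other CB libraries and 51.6 and 64.2 CPM in TB. The same library held the lowest kcnk2b, at 4.87 CPM beside 15.6 and 18.8 CPM in CB, and TB 1 was low as well, at 5.91 CPM beside 21.6 CPM in TB 2. For these 3 genes the difference between libraries of 1 group was thus larger than that between groups. The inward rectifier kcnj1a.1, with its wide range in intact testes, was at 4.11, 8.02 and 6.93 CPM in CB and 7.08 and 7.14 CPM in TB, close to its CD levels.

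The tandem-pore channel kcnk5b was the 1 member present in all 3 tables, and so the only one for which bulk-seq and pseudo bulk-seq can be set together. In bulk-seq it was at 32.5, 22.3 and 29.6 CPM in CB and 23.2 and 11.2 CPM in TB (log2 fold change −0.69 ± 0.41, edgeR adjusted p = 0.583). In pseudo bulk-seq it had 77, 197 and 133 counts, or 22.5, 19.7 and 21.9 CPM, in CP and 115 and 138 counts, or 20.6 and 17.4 CPM, in TP. Those groups overlapped (log2 fold change −0.17 ± 0.19, edgeR adjusted p = 0.524), in a table where 8.69% of all rows passed as higher and 19.4% as lower in TP. The difference between both effects was 0.41 on the log2 scale (standard error 0.45, edgeR interaction test, adjusted p = 0.574), and 7% of the 4388 rows in both tables passed that test, a share that rests on single libraries, since 307 calls became 1 without TP replicate 2 and 1542 without TB replicate 1. That test treated all libraries as independent, although both methods used the same suspensions, because bulk columns could not be tied to single samples. The TB value rests on the shallow library, since the difference between both effects was −0.17 without TB 2. Every count in TPxCP is at least 30 and 1011 of its rows have no symbol, and other kcn genes were not analysed there.

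Other genes of ion transport were counted in the same way. Of 15 rows for the Na,K-ATPase, which builds the potassium gradient, atp1b3b (NM_131670) alone passed in CDxCI, at 162 ± 19.6 CPM in CI and 86.3 ± 4.82 CPM in CD (SD, n = 3 each, edgeR adjusted p = 0.0285). Of 35 sodium and calcium channel rows tested, scn4ab (NM_001045065) alone passed, at 11.3 ± 5.85 and 2.79 ± 0.77 CPM (edgeR adjusted p = 0.0411). These are 1 call of 15 and 1 of 35, both lower in CD, beside 1.96% of all rows. In CDxCI, 4 of 15 Na,K-ATPase rows and 13 of 35 sodium and calcium channel rows had a log2 fold change above 0, with medians of −0.63 and −0.23. None of the 14 other rows tested from cation-chloride cotransporters, potassium-dependent sodium-calcium exchangers, cyclic nucleotide channels and intracellular potassium channels passed in CDxCI. No row carried the symbol lrrc26, lrrc38, lrrc52 or lrrc55, under which BK gamma subunit genes were searched for, so none was tested. In TBxCB no row of these lists passed, and a log2 fold change above 0 was found for 12 of 15 Na,K-ATPase rows and 25 of 34 sodium and calcium channel rows, with medians of 0.49 and 0.75, beside 47.2% of all rows. The cotransporters had 3 of 7 rows above 0, with a median of −0.06, and the intracellular potassium channels 2 of 4, with a median of 0.08.

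In TPxCP, 5 of 9 ion transport rows outside the kcn genes passed, 2 as higher and 3 as lower in TP, beside the 8.69% and 19.4% of all rows given above. The sodium pump subunits atp1a1b and atp1b1a were lower in TP, with log2 fold changes of −1.21 and −1.17 (edgeR adjusted p = 0.0272 and 0.0107), while atp1b3a was higher by 0.76 (edgeR adjusted p = 0.0354). The cotransporter slc12a2, which brings potassium into cells with sodium and chloride, was higher, at 21.5 ± 6.20 CPM in CP (SD, n = 3) and 54.1 ± 0.84 CPM in TP (SD, n = 2), a log2 fold change of 1.33 (edgeR adjusted p = 0.0100). The sodium channel scn4aa was lower by 0.88 on the log2 scale (edgeR adjusted p = 0.0450). In the same libraries, 6 spermatocyte markers summed to 4031 to 5932 CPM in CP and 1769 to 2172 CPM in TP. The 2 spermatid and sperm markers in the table summed to 474 to 1004 CPM in CP and 46.7 to 73.7 CPM in TP. In the other direction, 2 spermatogonia markers summed to 865 to 1149 CPM in CP and 1421 to 1547 CPM in TP. Of the Sertoli list only dmrt1 was present, at 308 to 351 CPM in CP and 406 to 468 CPM in TP. Of the leukocyte list only coro1a was present, at 15.2 to 23.2 and 23.3 to 26.02 CPM. The scRNA-seq clusters named in the paper are all of germ cells, and it reports no immune cells. A list with 1 gene cannot show that its cell type was present. The part of these markers in the differences was not tested.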

How the data were processed

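Zebrafish testes were profiled by 3′ mRNA bulk-seq (QuantSeq, aligned to GRCz11 on BlueBee) and by 10x scRNA-seq summed over cells (Cell Ranger 6.01 and Seurat 4.0.4 per the labels). The tables deposited by the authors hold raw counts per RefSeq accession. Columns of the authors' own comparisons (log2 fold change, mean level, p-value, FDR) were not used in any result, and were looked at once to check row order and sign. From 2 other count tables, 10 columns of per-sample values were not used, since members were defined in 3 tables. Symbols came from RefSeq (assembly GRCz12tu), for 97.6% of rows of CDxCI and TBxCB and 85.2% of TPxCP.

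In TBxCB, counts ascend by control total and then by TCDD total while accessions run from abundant to undetected, so the counts were reversed. After removal of a running median, the correlation across rows of CB with CD was 0.35 in reversed order and 0.02 as deposited. Of all rows, 2255 share both totals with another row.

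Rows passing filterByExpr were tested in R 4.3.3 with edgeR 4.0.16 (TMM, quasi-likelihood, robust) without a block, with Benjamini-Hochberg adjustment over all rows and a threshold of 0.05. The script was tested on simulated counts with large changes in rows with ample counts, and with less spread than CDxCI and TBxCB show. Weak rows and small changes were not covered by that simulation. Alternatives were RLE factors, DESeq2 1.42.0, no filter, a replicate block and leaving out each library. Named genes are members that passed, the 12 most abundant, the 10 and 6 with the largest fold changes in CDxCI and TBxCB, and those in TPxCP. Other genes named among those whose libraries did not overlap or differed in class were chosen after their values were seen. Members and lists were chosen with earlier results of these data known. Replicates are libraries that the labels number separately, and p-values measure the spread between them. Floors of 3 counts cover counting error only.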

Additional observations from a re-analysis of the deposited data

How the results depend on the processing

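The 1 kcn row called in CDxCI became 3 with DESeq2 (kcnn1b, kcnj1a.1 and kcnj14) and 0 to 2 when 1 library was left out, and kcnn1b had an adjusted p between 9.27e-08 and 0.0630 over all settings. With the replicate block 2 rows were called, kcnn1b and kcnj1a.1 (adjusted p = 0.0169 from edgeR). CI and CD are contralateral testes, but no source says that a replicate number marks a fish, and deviations of same-numbered libraries correlated at 0.26, 0.04 and −0.06, so the numbers were not taken as pairs. In TPxCP the block left 0 rows called. In TBxCB and in the difference between methods no paired analysis was possible because the bulk-seq columns carry no sample of their own, so the replicate block, the suspension block and leaving out whole suspensions were not run. For the difference between methods, single libraries were left out instead. That alternative and keeping tied rows of TBxCB in the other order were chosen after seeing the data, and both kept the kcn count at 0. A lone TB library was assumed to vary like the controls. All other settings, RLE and no filter included, kept 1 row in CDxCI, and 0 rows in TBxCB, in TPxCP and, for RLE, in the difference between methods. Of well expressed rows there were 16 at a mean of 5 CPM, 5 at 20 CPM and 8 to 10 with 1 library left out.

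Among single genes that did not pass, the log2 fold change of kcnq1.1 in CDxCI turned to −0.034 without a filter and to −0.072 with DESeq2. With 1 library left out, directions turned in CDxCI for kcnh6a (−0.30 to 0.085), kcnk2b (−0.15 to 0.32), kcng4a (−0.34 to 0.69) and kcnq1.1 (−0.71 to 1.17), and in TBxCB for kcnn1b (−0.31 to 0.63), kcnh6a (−0.18 to 0.26), kcnj1a.1 (−0.074 to 0.41), kcnk2b (−1.09 to 0.73), kcng4a (−1.31 to 0.22) and kcnk5a (−0.91 to 0.45), all on the log2 scale. For kcnk5b the difference between methods ranged from −0.17 to 1.06. The share of kcn rows above 0 in TBxCB was 63.04% to 74.4% with 1 library left out, beside 44.6% to 50.6% of all rows. Without a filter it was 57.6%, beside 46.0% of all rows.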
